A study of Mus musculus with 24 samples.

Results

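The precursor genes of 10 neuropeptides, Cck, Calca, Npy, Tac1, Penk, Gal, Nts, Sst, Crh and Vip, were followed across cerebellum, brainstem and liver of Atxn2-CAG42-knock-in mice. Every probe set was taken whose platform annotation gives the symbol of 1 of these genes, a probe set being the group of short oligonucleotides that reads out a transcript. This gave 10 probe sets of 9 genes among 45037 probe sets tested, with 2 probe sets for Tac1 and 1 for each other gene. None carried the symbol Calca in the annotation used, so that the precursor of calcitonin gene-related peptide is not analysed here.

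Neuropeptides are cut from larger precursor proteins in the secretory pathway, stored in dense core vesicles and released to act on G protein-coupled receptors of nearby or distant cells. Each is made by restricted groups of neurons, so that the mRNA of its precursor can differ strongly between brain regions. Brainstem nuclei use many of them in the control of breathing, feeding, blood pressure and pain, whereas the cerebellar cortex uses few.

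The CAG42 mice were homozygous for an expanded CAG repeat inserted into their own Atxn2 gene, a model of spinocerebellar ataxia type 2, and were compared with wild-type (WT) littermates on a C57BL/6 background. The expanded gene was under the control of the endogenous Atxn2 promoter. The selection cassette had been excised, and the paper describes the removal of the selection markers as almost complete. All mice were 18 months old. Cerebellum, brainstem and liver each had arrays of 4 CAG42 and 4 WT mice, 24 arrays in all. The sources used here do not name the sex of the mice whose tissues were put on arrays.

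Expression is given as the log2 value deposited by the authors, on which a difference of 1 is a fold of 2. The level of a probe set can be compared between arrays but not with the level of another probe set, and a value near 3 cannot be told from background here, so that a difference from such a value gives only a lower bound on the size of the gap. A difference was called when its adjusted p was below 0.05 in limma, with Benjamini-Hochberg correction over all 45037 probe sets of a comparison. Arrays of the same group correlated at 0.992 or more in both brain regions and at 0.954 or more in liver. The tissue labels were checked against marker genes in WT mice, where 10 of 10 cerebellar markers, among them Pcp2 of Purkinje cells (log2 difference, cerebellum minus brainstem, 3.92), were higher in cerebellum. Of 12 brainstem markers, 11 were lower there, among them Slc6a4, the serotonin transporter (-4.80). The cerebellar markers were not absent from brainstem. Their summed linear level in WT was 25610 to 27850 in cerebellum, 2009 to 3424 in brainstem and 171.2 to 204.4 in liver. The part of cerebellar tissue in the brainstem levels was not tested. The dopamine transporter Slc6a3, a marker of midbrain, differed by -5.37, so that the tissue labelled brainstem held this midbrain transcript. Of the other midbrain markers, Foxa1 (-2.55), Tfap2d (-2.06), Pou4f1 (-2.01) and Pax7 (-0.99) were also called lower in cerebellum. Otx2 (-0.12) and Lmx1a (0.03) were not called.

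The brainstem arrays were not all alike, and replicate 4 of both genotypes stood apart in 4 hypothalamic precursors. Pmch, the precursor of melanin-concentrating hormone made in the lateral hypothalamus, had levels of 4.58, 4.44, 7.74 and 11.14 in the CAG42 brainstem arrays and 7.37, 8.19, 9.68 and 11.44 in the WT brainstem arrays, in the order of the replicate numbers. Hcrt, the orexin precursor of the same area, was between 3.51 and 3.69 in CAG42 replicates 1 to 3 and 7.40 in replicate 4, against 3.29, 3.44, 5.48 and 8.0 in WT. Avp and Oxt, the hypothalamic precursors of vasopressin and oxytocin, were also highest in replicate 4 of both genotypes, with 5.71 in CAG42 and 8.61 in WT for Avp, and 4.72 in CAG42 and 6.96 in WT for Oxt. These 4 genes were picked after their values were seen. Trh, the precursor of thyrotropin-releasing hormone, did not follow them. Its replicate 4 had 4.98 in CAG42, below replicate 3 (5.10), and 5.53 in WT, below replicate 1 (5.71). The summed linear level of pituitary markers was highest in replicate 2 of CAG42 (451.5) and in replicate 4 of WT (241.5). Replicate 4 was the lowest of its group in both genotypes for Npy, Tac1, Penk, Sst and Vip, 5 of the 10 neuropeptide probe sets. This pattern was shared by 10.2% of all probe sets. For Cck replicate 4 was the highest of its group in both, a pattern shared by 6.35% of all probe sets. The part of hypothalamic tissue in these levels was not tested, and the results below are given with and without the arrays of that number where the call depends on them.

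**Figure D1:**
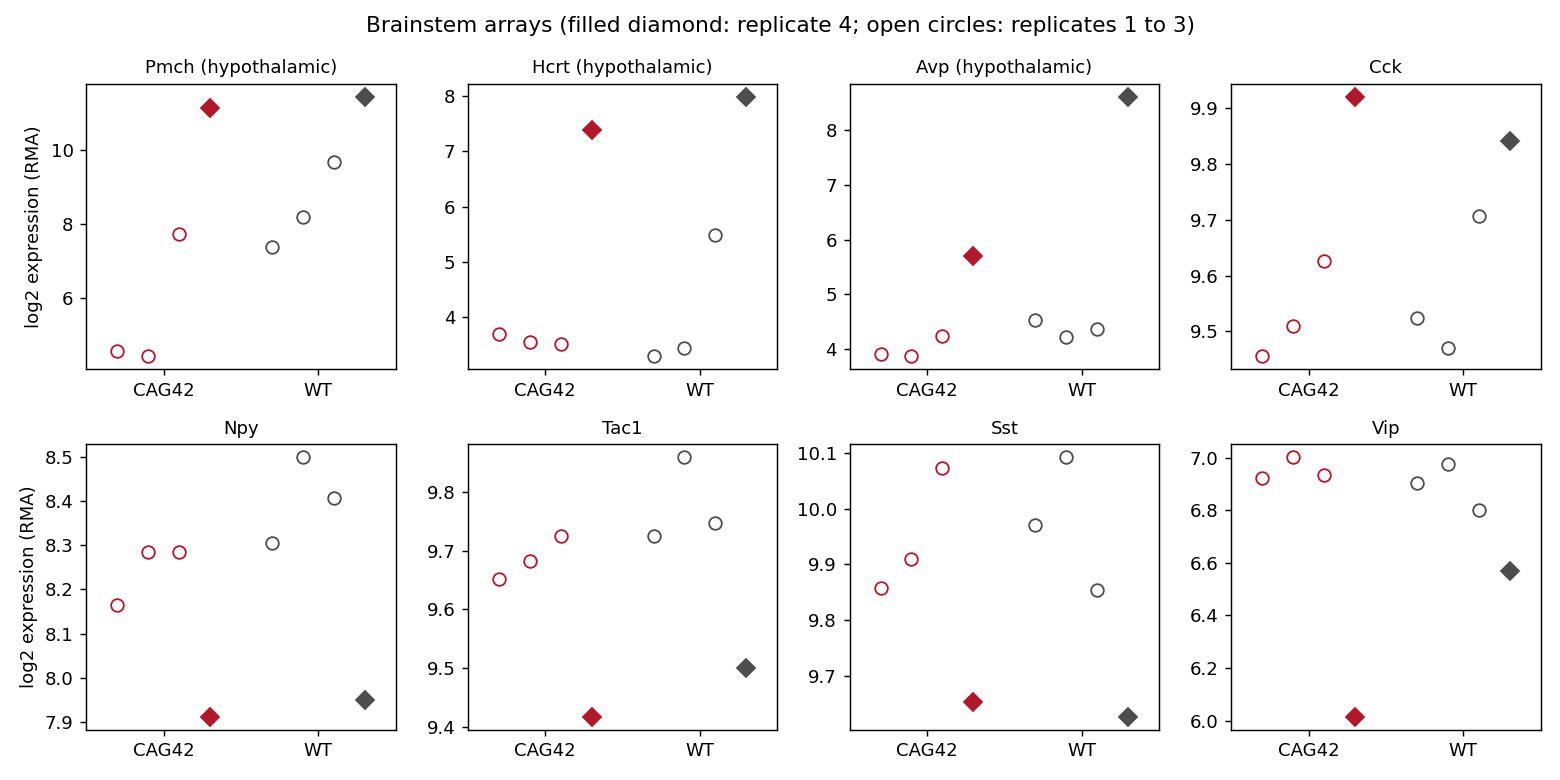
Log2 expression (y axis, its range set per panel) of 3 hypothalamic precursors and 5 members in the 4 CAG42 and 4 WT brainstem arrays, with replicate 4 as a filled diamond and replicates 1 to 3 as open circles. Replicate 4 was highest for Pmch, Hcrt, Avp and Cck and lowest for Npy, Tac1, Sst and Vip in both genotypes.

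The members fell into those at similar levels in both brain regions and those found almost only in brainstem. In WT mice 7 of the 10 probe sets were lower in cerebellum than in brainstem and none was called higher, whereas 28.2% of all probe sets were called lower and 18.8% higher. A difference of at least 1 was reached by 6 of the members, all lower in cerebellum, against 7.07% of all probe sets. The cerebellar and brainstem arrays did not overlap for the 7 members, a pattern shared by 29.7% of all probe sets. The median difference over the members was -3.39, against -0.07 over all probe sets. In CAG42 mice 6 members were called lower in cerebellum and none higher (27.9% of all probe sets lower, 18.7% higher). All 6 differed by at least 1 (6.90% of all probe sets) and did not overlap (30.4% of all probe sets). With whole regions measured, fewer peptide neurons and less mRNA in each of them cannot be told apart.

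**Figure D2:**
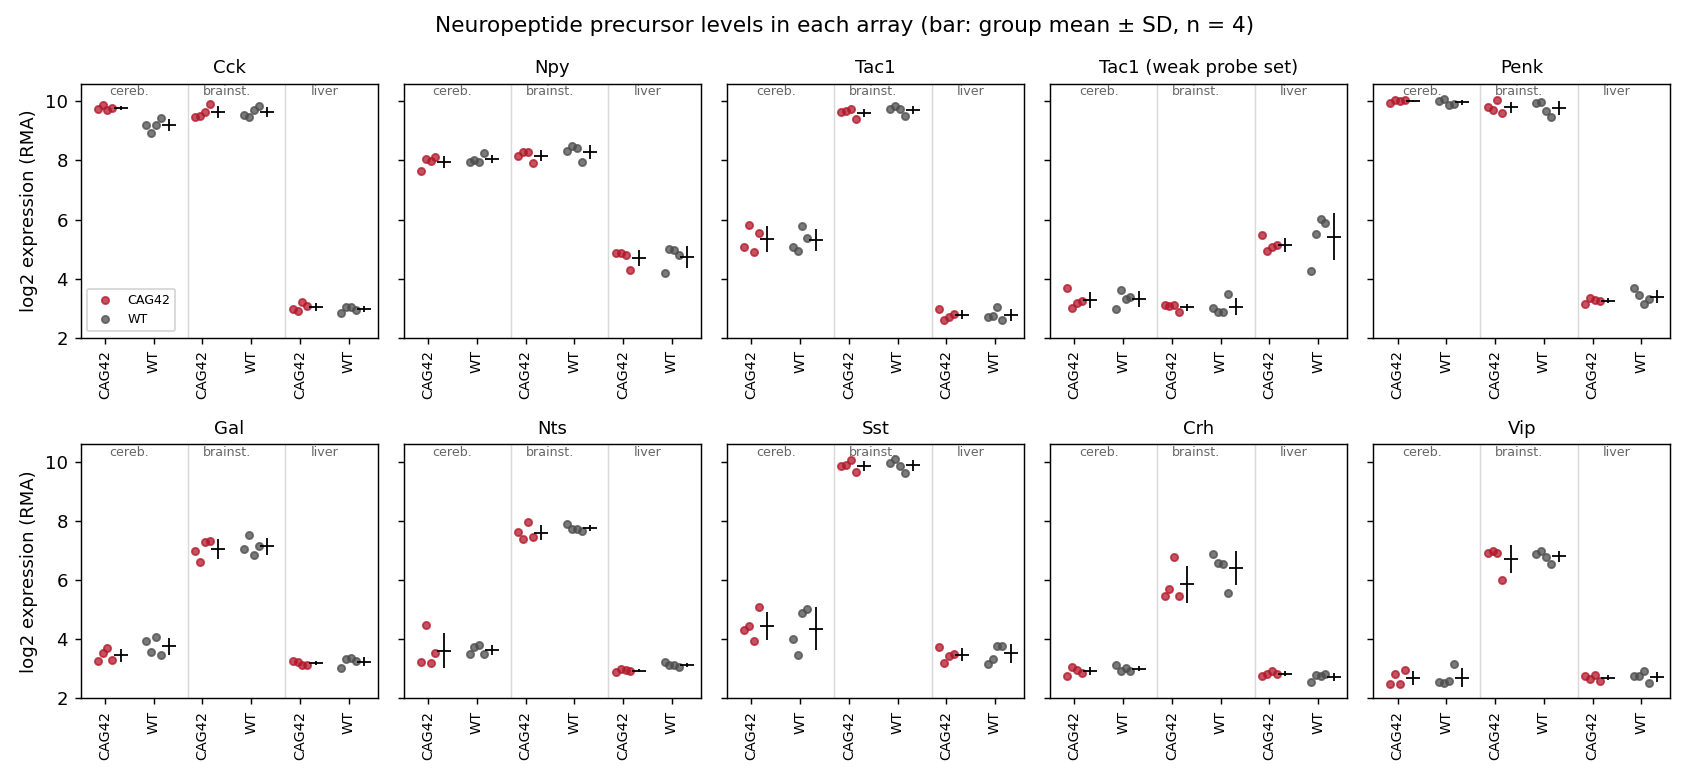
Log2 expression of each member probe set (y axis) in every array, by tissue and genotype on the x axis, with the group mean and SD of 4 mice as a black bar. Cck, Npy and Penk lay at similar heights in cerebellum and brainstem, and Tac1, Gal, Nts, Sst, Crh and Vip were far lower in cerebellum, while the weak second Tac1 probe set was highest in liver.

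Sst encodes somatostatin, an inhibitory peptide of interneurons and many brainstem nuclei, and had the widest gap between the regions. In CAG42 mice its 4 levels were 4.30, 4.47, 3.94 and 5.08 in cerebellum and 9.86, 9.91, 10.07 and 9.65 in brainstem. In WT mice they were 4.02, 3.49, 4.89 and 5.04 in cerebellum and 9.97, 10.09, 9.85 and 9.63 in brainstem. The lowest brainstem array thus lay more than 4 above the highest cerebellar one. The difference of cerebellum minus brainstem was -5.42 in CAG42 (95% interval -5.96 to -4.89) and -5.53 in WT (-6.07 to -4.99), with adjusted p in limma of 2.88e-14 in CAG42 and 2.1e-14 in WT. Between cerebella of 1 genotype Sst had an SD of 0.48 in CAG42, above that of 98.5% of probe sets, and of 0.73 in WT, above that of 99.5%. It was the most variable member in WT cerebellum, whereas Nts was in CAG42 cerebellum.

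Tac1 encodes the precursor of substance P and neurokinin A, which carry pain and breathing signals in the brainstem. Its main probe set averaged 5.34 ± 0.43 in cerebellum and 9.62 ± 0.14 in brainstem of CAG42 mice, and 5.30 ± 0.37 in cerebellum and 9.71 ± 0.15 in brainstem of WT mice (SD, n = 4 each). The cerebellum was thus lower by 4.28 in CAG42 and by 4.41 in WT on the log2 scale (adjusted p in limma 2.02e-15 in CAG42 and 1.17e-15 in WT). The second Tac1 probe set did not follow the first. It averaged 3.28 in cerebellum and 3.04 in brainstem of CAG42 mice, and 3.31 in cerebellum and 3.06 in brainstem of WT mice, with no called difference in either genotype (adjusted p in limma 0.48 in CAG42 and 0.446 in WT), and it was highest in liver, at 5.15 in CAG42 and 5.42 in WT. The probe sets of Tac1 therefore disagree, and the files do not say which transcript the weak one reads.

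Nts encodes neurotensin, a peptide that acts on dopamine signalling and body temperature, and Vip encodes vasoactive intestinal peptide. Nts averaged 3.62 ± 0.60 in cerebellum and 7.61 ± 0.26 in brainstem of CAG42 mice, and 3.64 ± 0.16 in cerebellum and 7.77 ± 0.10 in brainstem of WT mice. Its 4 CAG42 cerebella had 3.24, 4.49, 3.20 and 3.54, so that replicate 2 alone widened the spread. Vip averaged 2.69 ± 0.24 in cerebellum and 6.72 ± 0.47 in brainstem of CAG42 mice, and 2.71 ± 0.31 in cerebellum and 6.81 ± 0.18 in brainstem of WT mice. In WT cerebellum the level of Vip differed from that of liver by -0.03 (95% interval -0.40 to 0.35), so that no cerebellar Vip signal above that of liver was detected. The difference of cerebellum minus brainstem in WT was -4.13 ± 0.19 for Nts and -4.10 ± 0.18 for Vip (SE; adjusted p in limma 8.5e-15 for Nts and 5.72e-15 for Vip), and for Vip it is a bound, since its cerebellar level could not be told from background.

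Gal encodes galanin, a peptide of noradrenergic and other brainstem neurons, and Crh encodes corticotropin-releasing hormone, which in the brainstem is made in Barrington's nucleus and in the inferior olive. Gal averaged 3.46 ± 0.21 in cerebellum and 7.06 ± 0.33 in brainstem of CAG42 mice, and 3.77 ± 0.28 in cerebellum and 7.15 ± 0.29 in brainstem of WT mice. Crh averaged 2.92 ± 0.14 in cerebellum and 5.86 ± 0.64 in brainstem of CAG42 mice, and 3.0 ± 0.09 in cerebellum and 6.40 ± 0.58 in brainstem of WT mice. The regions did not overlap for either gene. In WT the cerebellum was lower by 3.38 for Gal and by 3.40 for Crh on the log2 scale (adjusted p in limma 2.26e-14 for Gal and 2.26e-11 for Crh). The value for Crh is a bound, since its cerebellar level was not called above that of liver. Crh was the most variable member in brainstem, with an SD above that of 99.4% of probe sets in CAG42 and 99% in WT.

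Cck, Npy and Penk were as high in cerebellum as in brainstem or close to it. Penk encodes proenkephalin, the precursor of the opioid enkephalins, which Golgi cells of the cerebellar cortex also make. It averaged 10.01 ± 0.04 in cerebellum and 9.79 ± 0.19 in brainstem of CAG42 mice, and 9.97 ± 0.09 in cerebellum and 9.77 ± 0.25 in brainstem of WT mice. The difference of cerebellum minus brainstem was 0.22 in CAG42 (95% interval -0.02 to 0.46) and 0.20 in WT (-0.04 to 0.44) and was not called (adjusted p in limma 0.131 in CAG42 and 0.169 in WT). Npy, a peptide of inhibitory and of catecholamine neurons, averaged 7.95 ± 0.21 in cerebellum and 8.16 ± 0.18 in brainstem of CAG42 mice, and 8.05 ± 0.15 in cerebellum and 8.29 ± 0.24 in brainstem of WT mice. Its difference was -0.22 in CAG42 (95% interval -0.56 to 0.13) and -0.24 in WT (-0.58 to 0.10), also not called.

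Cck encodes cholecystokinin, a satiety peptide of the gut and 1 of the most widespread peptides of the brain. It was the member whose regional difference was called in 1 genotype and not in the other, with 0.14 ± 0.11 for cerebellum minus brainstem in CAG42 (SE; adjusted p = 0.323 in limma) and -0.45 ± 0.11 in WT (adjusted p = 0.00198). These small differences changed with the scaling. With quantile normalization within both regions the Cck difference was 0.34 in CAG42 (adjusted p = 0.0166) and -0.26 in WT (adjusted p = 0.0621), and Penk was then called higher in cerebellum, with 0.43 in CAG42 (adjusted p = 0.00398) and 0.39 in WT (adjusted p = 0.00719). Among all probe sets called in WT, 40.0% were higher in cerebellum with the deposited values and 50.7% after that normalization. Without WT and CAG42 replicate 4 in either region, 6 members were called in CAG42 and 7 in WT.

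**Figure D3:**
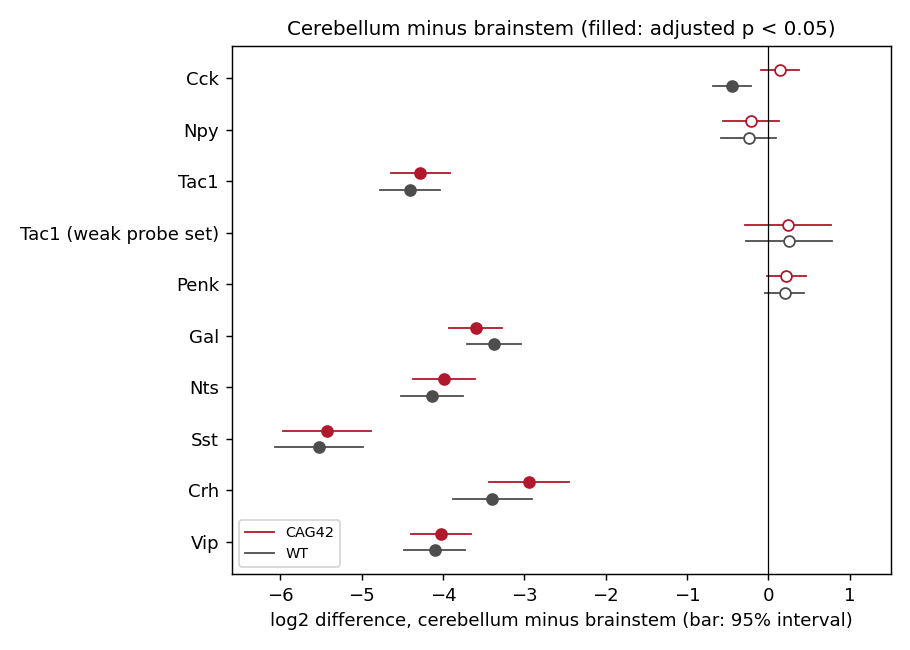
Difference of cerebellum minus brainstem on the log2 scale (x axis) for each member probe set, in CAG42 and in WT mice, with its 95% interval as a line and filled points where the adjusted p was below 0.05. Differences between -5.53 and -2.94 were found for Tac1, Gal, Nts, Sst, Crh and Vip in both genotypes, and Cck was called in WT only.

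Liver served as a tissue without neurons. In WT mice 9 of the 10 probe sets were called higher in brainstem than in liver (46.5% of all probe sets), with differences from 3.55 for Npy to 6.94 for Tac1, and the weak Tac1 probe set was called lower (-2.36). In cerebellum 7 of 10 were called higher than in liver (44.4% of all probe sets), and the weak Tac1 probe set was again lower. Cck (6.22), Penk (6.58), Npy (3.31) and Tac1 (2.53) stood well above liver in cerebellum, whereas Sst (0.84), Gal (0.52) and Nts (0.50) differed by less than 1 and Crh (0.27) and Vip were not called. Between the genotypes, limma called 0 of the 10 probe sets in liver (0.147% of all probe sets), and 0 had an unadjusted p below 0.05 (8.61% of all). For Nts, close to background in liver, every CAG42 array lay below every WT array (difference -0.19), a pattern shared by 1.81% of all probe sets.

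The promoters of the members were read from RefSeq (assembly GRCm38.p6), and 7 of the 9 measured genes had an entry in the table used. The genes that show the regional contrast best were chosen for printing, Cck and Npy, present in both regions, and Tac1, Sst and Vip, high in brainstem only. The 200 bases before the start are printed in the direction of the gene, with capitals where a cAMP response element was matched. These elements bind CREB, the transcription factor through which cAMP raises the transcription of several neuropeptide genes, and the somatostatin promoter is a well-studied example. On both strands of the 250 bases before the start, 3 forms were searched: the palindrome TGACGTCA, a shorter form that reads TGCGTCA on one of its strands, and the core TGACG, which lies within both. The core appears as CGTCA where it was matched on the opposite strand.
Cck, chr9:121495695-121495894, minus strand: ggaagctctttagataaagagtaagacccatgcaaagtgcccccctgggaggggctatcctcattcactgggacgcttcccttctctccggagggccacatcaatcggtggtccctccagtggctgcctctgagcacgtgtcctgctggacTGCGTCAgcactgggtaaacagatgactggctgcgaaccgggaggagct
Npy, chr6:49822510-49822709, plus strand: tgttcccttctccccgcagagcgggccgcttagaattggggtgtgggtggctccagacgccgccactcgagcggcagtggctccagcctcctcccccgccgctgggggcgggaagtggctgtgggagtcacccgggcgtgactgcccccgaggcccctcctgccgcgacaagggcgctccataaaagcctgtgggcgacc
Tac1, chr6:7554861-7555060, plus strand: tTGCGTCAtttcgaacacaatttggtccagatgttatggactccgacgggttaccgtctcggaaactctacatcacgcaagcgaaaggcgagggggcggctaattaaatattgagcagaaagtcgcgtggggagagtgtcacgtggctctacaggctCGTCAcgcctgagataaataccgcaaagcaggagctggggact
Sst, chr16:23890845-23891044, minus strand: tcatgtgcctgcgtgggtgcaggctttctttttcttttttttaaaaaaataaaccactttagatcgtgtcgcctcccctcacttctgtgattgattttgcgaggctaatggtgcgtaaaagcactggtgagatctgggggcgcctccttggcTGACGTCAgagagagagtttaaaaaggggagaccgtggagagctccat
Vip, chr10:5639018-5639217, plus strand: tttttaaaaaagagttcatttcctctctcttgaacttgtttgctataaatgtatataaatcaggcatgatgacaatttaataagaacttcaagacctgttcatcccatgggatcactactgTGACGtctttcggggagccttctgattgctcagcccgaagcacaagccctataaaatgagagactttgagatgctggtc
Sst held the palindrome at bases 48 to 41 before its start, as do 1.55% of the 32851 promoters in the table. Cck held the shorter form at bases 49 to 43 and Tac1 at bases 199 to 193, as do 1.75% of all promoters. The core alone was matched in Vip at bases 79 to 75, in Tac1 at bases 43 to 39 and in Nts at bases 166 to 162, and with or without the longer forms it is present in 17.8% of all promoters. In all, 5 of the 7 promoters had a match, and those of Npy and Gal had none in this window. Matches occurred both in genes shared by the regions and in genes high in brainstem only.

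Whether the CAG42 mutation changed the members was tested in each region, and no member passed. In cerebellum limma called 0 of the 10 probe sets (0.0444% of all probe sets) and 1 had an unadjusted p below 0.05 (3.59% of all). In brainstem it also called 0 (0.0155% of all), with 1 at an unadjusted p below 0.05 (4.17% of all). With a single F statistic over the genotype differences of the 3 tissues, 0 members were called. The median difference of CAG42 minus WT over the members was -0.02 in cerebellum and -0.09 in brainstem, against -0.01 over all probe sets in each region. In brainstem 9 of the 10 differences lay below 0 and 1 above it, against 46.2% of all probe sets above 0. All member differences but that of Crh were smaller than 0.17 in size, and 6 of the 10 changed sign when a single array was left out.

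**Figure D4:**
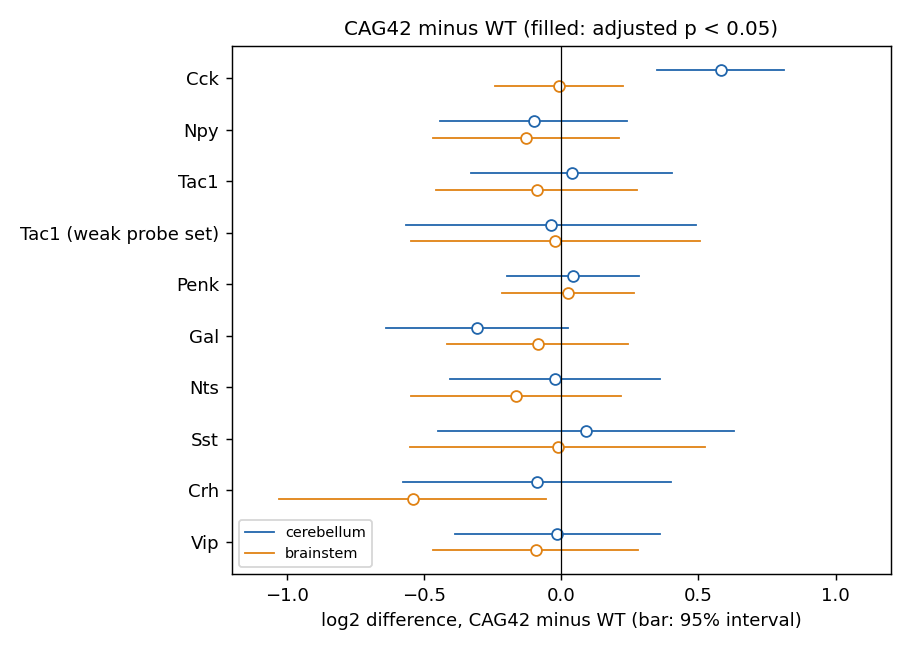
Difference of CAG42 minus WT on the log2 scale (x axis) for each member probe set in cerebellum and brainstem, with its 95% interval as a line; a filled point would mark an adjusted p below 0.05 and there are none. The interval excluded 0 for Cck in cerebellum and for Crh in brainstem.

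Cck in cerebellum came closest to the threshold. The CAG42 cerebella had 9.73, 9.87, 9.70 and 9.79, and the WT cerebella had 9.20, 8.92, 9.20 and 9.43. Every CAG42 array lay above every WT array, a pattern shared by 1.71% of all probe sets. The mean was 9.77 ± 0.07 in CAG42 and 9.19 ± 0.21 in WT (SD, n = 4 each), a difference of 0.58 ± 0.11 (SE) or 1.5-fold. Its adjusted p was 0.0668 in limma, its rank by p was 21 of 45037, and the exact two-sided permutation test gave 0.0286, the smallest p that 4 against 4 mice allow.

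In brainstem the groups overlapped for Cck. The CAG42 brainstems had 9.46, 9.51, 9.63 and 9.92, and the WT brainstems had 9.52, 9.47, 9.71 and 9.84, a difference of -0.01 (95% interval -0.24 to 0.22). The genotype effect in cerebellum exceeded that in brainstem by 0.59 ± 0.16 (SE; 95% interval 0.26 to 0.92), which missed the threshold (adjusted p = 1 in limma, rank 12 by p among all probe sets). For this difference of effects limma called 0 members (0.00222% of all probe sets), and 1 had an unadjusted p below 0.05 (1.68% of all), Cck itself.

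The call of Cck turned on single arrays and settings. Leaving out WT cerebellum replicate 4, the highest of its group, gave 0.66 with an adjusted p of 0.0384, and leaving out replicate 4 of both genotypes in both regions gave 0.66 with an adjusted p of 0.0203. Leaving out probe sets below the median level brought the adjusted p to 0.0401, and weighting the arrays brought it to 0.0315. Of the 18 alternative settings tried, only these 4 gave an adjusted p below 0.05 in limma. Over all of them the difference stayed between 0.49 and 0.66 while the adjusted p reached up to 0.396. The 10 markers of choroid plexus, a tissue that borders the cerebellum, had a median difference of CAG42 minus WT in cerebellum of 0.58, and 4 of the 10 had an unadjusted p below 0.05 and 0 were called. Their summed linear level was 5826 to 7997 in CAG42 cerebella and 1117 to 7468 in WT cerebella. Within WT, replicate 4 with the lowest sum had the highest Cck, and replicate 2 with the highest sum had the lowest Cck. Within CAG42 the order was the same for both, with replicate 3 lowest, then replicates 1 and 4, and replicate 2 highest. The part of choroid plexus in the Cck difference was not tested.

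**Figure D5:**
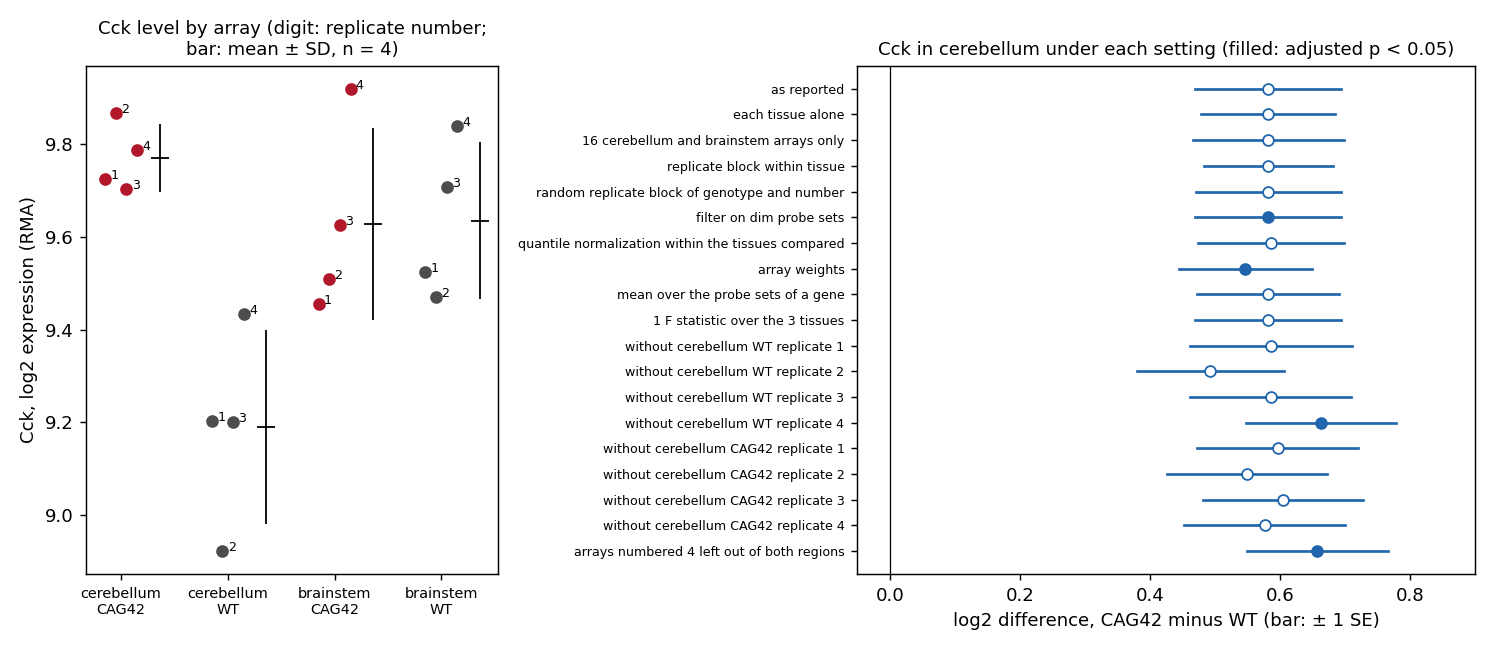
Left, log2 expression of Cck (y axis) in each cerebellar and brainstem array, with the replicate number beside the point and the mean and SD of 4 mice as a bar. Right, the cerebellar difference of CAG42 minus WT on the log2 scale (x axis) with its SE under each setting; it lay between 0.49 and 0.66 throughout, and filled points mark an adjusted p below 0.05.

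The genes whose levels varied most like Cck were sought over the 16 brain arrays, after the mean of each group had been taken off and among probe sets brighter than the median. Adgrl3, an adhesion receptor of synapses, had a Pearson r of 0.935 with Cck, Ppp1r13b, a partner of p53, had 0.921 and Slc25a51, a mitochondrial carrier, had 0.882. As the highest of many r these values show no link to Cck by themselves, and how high r runs by chance was not tested. In cerebellum the 3 genes had differences of CAG42 minus WT of 0.07 for Adgrl3, 0.01 for Ppp1r13b and 0.07 for Slc25a51 (adjusted p = 1 in limma for each).

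Crh in brainstem was the other member whose interval excluded 0. The CAG42 brainstems had 5.46, 5.71, 6.80 and 5.48, and the WT brainstems had 6.88, 6.59, 6.57 and 5.56. The groups overlapped, since CAG42 replicate 3 was as high as most WT arrays and WT replicate 4 as low as most CAG42 arrays. The difference was -0.54 (95% interval -1.03 to -0.05) with an adjusted p of 1 in limma and an exact permutation p of 0.343. Without replicate 4 of both genotypes it was -0.69, still with an adjusted p of 1. The limma interval rests on 1 spread shared by all 6 groups. Crh had an SD of 0.64 in CAG42 and 0.58 in WT brainstem. Near background, its SD was 0.14 in CAG42 and 0.09 in WT cerebellum, and 0.08 in CAG42 and 0.13 in WT liver. These quieter groups narrow the interval, so that its exclusion of 0 is not read as a difference.

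For the remaining members no difference between CAG42 and WT beyond the spread between mice was detected. Gal in cerebellum had 3.26, 3.55, 3.71 and 3.31 in CAG42 and 3.94, 3.58, 4.07 and 3.48 in WT, levels close to those of liver, and its difference was -0.31 (95% interval -0.64 to 0.02). For Penk the interval ran from -0.20 to 0.28 in cerebellum and from -0.22 to 0.26 in brainstem. For Tac1 it ran from -0.33 to 0.40 in cerebellum and from -0.45 to 0.28 in brainstem, and for Npy from -0.44 to 0.24 in cerebellum and from -0.47 to 0.22 in brainstem. Sst had an interval from -0.45 to 0.63 in cerebellum and from -0.55 to 0.53 in brainstem. The interval of Nts ran from -0.40 to 0.36 in cerebellum and from -0.55 to 0.22 in brainstem, and that of Vip from -0.39 to 0.36 in cerebellum and from -0.47 to 0.28 in brainstem. Gal in brainstem had an interval from -0.42 to 0.25 and Crh in cerebellum from -0.57 to 0.40. None of these intervals excluded 0.

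Several members varied together between brainstems. Over the 8 brainstem arrays and 72 pairs of members in both regions, 3 pairs passed Benjamini-Hochberg correction of the exact permutation p of Pearson's r, and in cerebellum 0 of 36 pairs passed. Npy and Tac1 had r = 0.981 and Spearman rho = 0.976 (exact permutation p = 7.44e-05 for r and 0.000397 for rho; adjusted p = 0.00536 for r and 0.0286 for rho), and r was 0.943 without the 2 arrays farthest from the median of Npy, which were replicate 4 of each genotype. Penk and Sst had r = 0.94 and rho = 0.952 (exact permutation p = 0.000422 for r and 0.00114 for rho; adjusted p = 0.0152 for r and 0.041 for rho), with r = 0.88 without the 2 farthest arrays and 0.862 without replicate 4 of both genotypes. Cck and Vip ran opposite, with r = -0.883 and rho = -0.786 (exact permutation p = 0.00131 for r and 0.0279 for rho; adjusted p = 0.0314 for r and 0.287 for rho), and r was -0.734 without the 2 farthest arrays, so that this pair passed by r only. Both members of a pair were read from the same arrays, among which replicate 4 of both genotypes stood apart in hypothalamic precursors. How many pairs of other probe sets pass in these arrays was not tested. Nothing particular to the members can therefore be read from these pairs.

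Among the other precursor genes, differences between the regions were common and none was called between the genotypes. Of 36 further precursors listed, 27 were measured, and in WT 17 were lower and 1 was higher in cerebellum than in brainstem (28.2% of all probe sets lower, 18.8% higher). The lowest were Cartpt, which encodes a feeding and reward peptide (-6.34), and Pmch (-6.10). Both values are bounds, since the WT cerebellar levels, 2.89 for Cartpt and 3.08 for Pmch, could not be told from background. Pmch was also uneven in WT brainstem (SD 1.79). The higher one was Npff, the precursor of an opioid-modulating peptide (0.61). In WT, Npff averaged 4.86 in cerebellum, 4.25 in brainstem and 4.73 in liver, so that its cerebellar level was close to that of liver. Between genotypes 0 of 27 were called in either region, with 2 at an unadjusted p below 0.05 in cerebellum (3.59% of all probe sets) and 6 in brainstem (4.17% of all). In brainstem 4 of the 27 differences of CAG42 minus WT were above 0, against 46.2% of all probe sets, and the median was -0.16. These genes were read from the same arrays and are not independent, and Pmch ran from 4.44 to 11.14 within CAG42 brainstem. No count without replicate 4 is given here, so that a general drop of precursors cannot be read from it. The lowest p belonged to Grp, the gastrin-releasing peptide precursor, with 6.37 ± 0.13 in CAG42 and 6.66 ± 0.13 in WT brainstem (SD, n = 4 each; difference -0.30, adjusted p = 0.915 in limma), and in cerebellum to Cort, the cortistatin precursor, with a difference of 0.26 (adjusted p = 1). Hypothalamic Pmch had -2.20 and Oxt -0.78 in brainstem (adjusted p = 1 each).

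Of the precursor-processing genes, 11 of 12 listed were measured. In WT 7 were lower and 1 higher in cerebellum (28.2% of all probe sets lower, 18.8% higher). The lower ones were led by Qpct, which forms the pyroglutamate end of some peptides (-2.78), and Pam, which amidates peptide ends (-2.25), and the higher one was the convertase Pcsk6 (1.11). Dense core vesicle genes were split: 7 of 11 measured were lower in cerebellum and 3 higher (28.2% of all probe sets lower, 18.8% higher). The lower ones were led by Baiap3, a vesicle release factor (-3.88), and Vgf, a granin-like precursor (-3.25). The 3 higher ones were Cadps2 (2.05), which primes vesicles in granule cells, Syt4 (0.47) and Chgb (0.44). Limma called 0 genes of either list between genotypes in cerebellum (0.0444% of all probe sets) or brainstem (0.0155% of all). An unadjusted p below 0.05 was reached by 0 of them (3.59% of all in cerebellum, 4.17% in brainstem). The lowest p was that of Cpe, the carboxypeptidase of peptide processing, in cerebellum (-0.15) and Pcsk5 in brainstem (-0.11), and among vesicle genes that of Baiap3 in cerebellum (-0.22) and Syt4 in brainstem (0.11), with an adjusted p of 1 for each.

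Receptors and binding proteins of these peptides were measured for all 32 genes listed. In WT 19 were lower in cerebellum, against 28.2% of all probe sets. They were led by Tacr3, a tachykinin receptor (-3.89), and Crhbp, which binds corticotropin-releasing hormone (-3.69). Both values are bounds, since the WT cerebellar levels, 2.84 for Tacr3 and 2.95 for Crhbp, could not be told from background. For Crh the receptor ran opposite to the peptide: Crhr1 averaged 7.96 ± 0.08 in cerebellum and 6.13 ± 0.24 in brainstem of CAG42 mice, and 7.83 ± 0.07 in cerebellum and 6.23 ± 0.21 in brainstem of WT mice, a difference of 1.60 in WT. Vipr1 and Vipr2, the receptors of vasoactive intestinal peptide, were also called higher in cerebellum but at dim levels. In WT, Vipr1 averaged 4.08 in cerebellum and 3.17 in brainstem, and Vipr2 averaged 4.0 in cerebellum and 3.49 in brainstem. The receptors of cholecystokinin, called lower in cerebellum, were dim as well, and the size of their difference is not read here. In WT, Cckbr averaged 2.84 in cerebellum and 3.99 in brainstem, and Cckar averaged 2.85 in cerebellum and 3.29 in brainstem, neither of them called above liver.

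Between genotypes 0 of the 32 receptor genes were called in either region, with 1 at an unadjusted p below 0.05 in cerebellum (3.59% of all probe sets) and 5 in brainstem (4.17%). The lowest p in cerebellum was that of Calcrl, the calcitonin receptor-like subunit (-0.33, adjusted p = 1 in limma). In brainstem it was that of Galr3, a galanin receptor, which had 4.34, 3.88, 3.87 and 4.06 in CAG42 and 3.48, 3.53, 3.65 and 3.62 in WT. Every CAG42 array lay above every WT array, a pattern shared by 1.57% of all probe sets, and the difference of 0.47 ± 0.10 (SE) had an adjusted p of 0.297.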

How the data were processed

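Affymetrix mouse arrays of cerebellum, brainstem and liver were analysed from the deposited log2 values, which the authors had made with RMA (the submitters' processing notes name R 2.7.0 and RMA). RMA equalises probe intensities between arrays before they are summarised. The deposited probe set values still differed in their median, which lay between 4.13 and 4.25 in WT liver and between 4.60 and 4.62 in WT brainstem, so that small differences between tissues depend on the scaling. The number of mice limits the precision. Of 45141 probe sets, 104 controls were left out. Symbols came from the platform annotation, brought up to date with RefSeq, and 28898 probe sets had 1 gene, 551 several and 15588 none. With limma 3.58.1 in R 4.3.3 the means of the 6 groups were fitted in a single linear model of all 24 arrays. The methods of the study name F statistics of an empirical Bayes model. Single contrasts were tested here, with 1 F statistic over the 3 tissues as an alternative. Matplotlib 3.10.9 under Python 3.11.15 drew the figures.

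The members, gene lists and tests were chosen with earlier results of these data known. Groups were taken from the sample labels. All members were named in all comparisons. From each list, genes called between genotypes or the gene of lowest p, and in the regional comparison the 2 called genes with the largest difference in each direction, were named, and for Cck the 3 genes of highest r. Further genes were chosen after their values were seen. A gene of several probe sets was read from its brightest one in brain.

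Replicate numbers were checked for pairing by the correlation of deviations from group means. Cerebellum and brainstem of the same genotype and number correlated at 0.224 to 0.375 and in 8 of 8 cases best with their own number. Arrays of these regions are thus paired by number. The labels do not say whether the same number means the same mouse, and liver was not checked. CAG42 and WT arrays of the same tissue and number correlated at -0.174 to 0.214 and share only a number. The alternatives were each tissue alone, the 16 brain arrays alone, replicate blocks, a filter on dim probe sets, quantile normalization, array weights, gene means, the F statistic, a stricter call and leaving out each array.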

Additional observations from a re-analysis of the deposited data

Results flagged for a closer look

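Dixon's test for a single far value was run on the 10 probe sets in each of the 6 groups of 4 arrays, 60 groups in all, and marked 5, where chance marks about 1 in 20. In brainstem, CAG42 replicate 4 had a Vip level of 6.01 against 6.92 to 7.0 in the other CAG42 mice, and a level of 2.86 for the weak Tac1 probe set against 3.08 to 3.11. In cerebellum, CAG42 replicate 1 had a Penk level of 9.95 against 10.03 to 10.04 in the others, and WT replicate 4 had a Vip level of 3.17 against 2.51 to 2.61. In liver, CAG42 replicate 4 had an Npy level of 4.29 against 4.80 to 4.86.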

How the results depend on the processing

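The regional differences of Tac1, Gal, Nts, Sst, Crh and Vip kept their direction and their call under each alternative, and quantile normalization ended the WT call of Cck and gave those of Penk and of Cck in CAG42. Without brainstem CAG42 replicate 3, Penk was called in CAG42 (0.30, adjusted p = 0.0459 in limma), so that leaving out single arrays gave 6 to 7 members there, 7 in WT, 0 to 1 in the cerebellar genotype comparison and 0 in brainstem and in the difference of effects. In cerebellum CAG42 minus WT, 1 member, Cck, was called with the filter on dim probe sets, with array weights, without WT replicate 4 and without the arrays numbered 4. Adding the replicate number as a block changed no member's call. Within cerebellum and brainstem the replicate block left 0 members called. The block pairing cerebellum and brainstem by genotype and number left 7 in WT and 6 in CAG42. The block within tissue moved the probe sets called in cerebellum to 13, against 20 without it, and the pairing block moved those of the difference of effects to 0.

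Over all probe sets, cerebellum CAG42 minus WT gave 10 with the tissue alone, 32 with array weights, 5 genes with gene means, and 9 to 19 when an array was left out (13 or fewer without CAG42 replicate 1 or 2 or any 1 of the 4 WT arrays). Brainstem CAG42 minus WT gave 13 with the 16 brain arrays alone, 25 with array weights, 0 with gene means, 22 without the arrays numbered 4, and 6 to 11 (11 without WT replicate 1) when an array was left out. The single F statistic over the genotype differences of the 3 tissues called 51, a count that belongs to no 1 tissue and cannot be set beside the others. The difference of effects gave 0 with gene means, 0 without the arrays numbered 4, and 1 to 2 (2 without cerebellum CAG42 replicate 4) when an array was left out. Cerebellum minus brainstem gave 8613 genes in CAG42 and 8755 in WT with gene means, 5440 probe sets in CAG42 and 5503 in WT with a difference of at least 1, and 19389 to 19736 in CAG42 and 19602 to 20034 in WT when an array was left out. The cause of these shifts was not tested.

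Differences of CAG42 minus WT near 0 changed sign. In cerebellum they ran, when an array was left out, from -0.16 to 0.0008 for Npy, -0.12 to 0.20 for Tac1, -0.17 to 0.061 for the weak Tac1 probe set, -0.31 to 0.12 for Nts, -0.20 to 0.32 for Sst and -0.10 to 0.14 for Vip. In brainstem they ran from -0.11 to 0.061 for Cck, -0.084 to 0.12 for the weak Tac1 probe set, -0.078 to 0.094 for Penk, -0.18 to 0.061 for Gal, -0.099 to 0.060 for Sst and -0.19 to 0.14 for Vip. Without the arrays numbered 4 they turned to -0.0056 for Tac1, 0.0005 for the weak Tac1 probe set and 0.049 for Vip in cerebellum, and to 0.18 for the weak Tac1 probe set, -0.010 for Penk and 0.060 for Vip in brainstem. With array weights Sst (0.031) and Vip (0.026) turned in brainstem. Leaving out the arrays numbered 4 was chosen after the data had been seen. Levels near 3 may be background, and 4 mice per group allowed no exact permutation p below 0.0286.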
